A study of Mus musculus with 16 samples.

Results

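The regions compared here are those of open chromatin that ATAC-seq listed in brown adipose tissue of fasting mice and not of fed mice, or the reverse, together with the regions listed in both states. ATAC-seq cuts accessible DNA with a transposase, so a peak marks a place where the chromatin was open. Each peak list was reduced to unique intervals, each interval kept its smallest p, and the set of a library held the intervals with a q-value under 0.01. A region was called fasting-only when no listed peak of the fed library overlapped it by 1 bp, and fed-only in the opposite case. By this rule 25307 of 131688 regions of the fasting set were fasting-only and 45362 of 149835 regions of the fed set were fed-only, 70669 regions in all, out of 2640607 regions in the sets of the 16 libraries of the series. The series covered 8 tissues of male C57BL/6 mice from the Jackson Laboratory, bought at 12 weeks of age. Fed mice had chow and water at all times, and fasting mice were without food for 24 h before the tissue was taken. Frozen tissue powder from 3 mice of a state was pooled in equal parts, and each tissue and state gave 1 library. There was thus no replicate of either state, no difference between the states could be set against a spread between animals, and the intervals given below cover counting error only. In a pooled bulk tissue, more cells of a type and more open chromatin per cell cannot be told apart.

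Brown adipose tissue burns fat to make heat. Its adipocytes carry Ucp1, a mitochondrial carrier that lets protons back across the inner membrane without making ATP, and noradrenaline drives it through beta-adrenergic receptors. Fasting lowers insulin, which frees FOXO transcription factors to enter the nucleus, and raises glucocorticoids, whose receptor binds DNA as a dimer at paired half-sites (the glucocorticoid response element, GRE).

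The letters GNACANNNTGTNC, searched on both strands within 100 bp of a summit, stood for the GRE, and TGTTTAC for the FOXO site. Among the 178776 regions of both sets that lay over 3000 bp from any annotated start, 0.719% held the GRE letters and 2.90% the FOXO letters. A match of this kind is a description of the sequence and not evidence of binding. The sequences below are 151 bases around the summit on the + strand of GRCm38, with the matched letters in capitals. The first 3 are shown because they lie in regions of the glucocorticoid genes Zbtb16, Fkbp5 and Tsc22d3 that were listed in both states, where the ratio of fasting to fed tags lay above that of the median region, and the capitals mark the GRE letters.
Zbtb16 (chr9:48775694-48775844): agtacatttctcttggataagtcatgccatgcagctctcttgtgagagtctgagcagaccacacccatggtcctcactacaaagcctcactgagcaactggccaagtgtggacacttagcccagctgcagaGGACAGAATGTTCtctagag
Fkbp5 (chr17:28484905-28485055): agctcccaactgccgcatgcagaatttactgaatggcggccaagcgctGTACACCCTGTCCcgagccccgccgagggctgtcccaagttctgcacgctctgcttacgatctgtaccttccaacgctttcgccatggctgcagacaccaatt
Tsc22d3 (chrX:140505951-140506101): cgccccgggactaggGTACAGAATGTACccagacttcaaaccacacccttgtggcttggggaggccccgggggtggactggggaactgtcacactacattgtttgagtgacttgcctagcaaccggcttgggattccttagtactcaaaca
The next 4 are among the strongest fasting-only regions with GRE letters, again in capitals, and their nearest protein-coding genes were Selenbp1, Pcca, Pepd and Zbtb16.
Selenbp1 (chr3:94913814-94913964): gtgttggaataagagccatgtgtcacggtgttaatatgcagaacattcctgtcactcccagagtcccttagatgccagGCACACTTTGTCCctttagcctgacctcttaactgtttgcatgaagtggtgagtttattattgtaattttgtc
Pcca (chr14:122721901-122722051): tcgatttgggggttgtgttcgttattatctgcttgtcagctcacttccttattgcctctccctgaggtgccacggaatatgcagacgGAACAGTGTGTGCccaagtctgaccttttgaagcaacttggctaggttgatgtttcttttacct
Pepd (chr7:35021473-35021623): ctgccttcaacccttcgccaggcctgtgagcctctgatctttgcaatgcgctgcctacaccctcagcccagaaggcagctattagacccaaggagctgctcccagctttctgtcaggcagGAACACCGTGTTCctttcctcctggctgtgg
Zbtb16 (chr9:48736451-48736601): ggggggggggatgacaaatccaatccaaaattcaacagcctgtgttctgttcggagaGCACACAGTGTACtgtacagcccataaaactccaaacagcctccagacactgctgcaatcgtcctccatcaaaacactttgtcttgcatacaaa
A further pair are strong fasting-only regions with the FOXO letters, read here as GTAAACA on the other strand, near Tec and Pde3a. In the first the capitals also mark AP1 letters (TGANTCA), and in the second those of MEF2 (CTANNNNTAG) and CEBP (TTGCNNAA).
Tec (chr5:72857921-72858071): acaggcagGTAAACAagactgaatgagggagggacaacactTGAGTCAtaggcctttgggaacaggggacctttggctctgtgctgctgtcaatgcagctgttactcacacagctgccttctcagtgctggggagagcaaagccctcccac
Pde3a (chr6:141347919-141348069): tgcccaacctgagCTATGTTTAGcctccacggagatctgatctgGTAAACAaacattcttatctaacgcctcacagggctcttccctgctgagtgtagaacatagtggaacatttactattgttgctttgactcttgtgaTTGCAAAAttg
The fasting-only region upstream of Trim63, the muscle ubiquitin ligase MuRF1, was the fourth of all fasting-only regions by p and held none of the 17 letter patterns searched. It is followed by the 2 strongest fed-only regions, nearest to Atp5g3 and Ckap4, where the capitals mark CEBP and STAT (TTCNNNGAA) letters.
Trim63 (chr4:134310211-134310361): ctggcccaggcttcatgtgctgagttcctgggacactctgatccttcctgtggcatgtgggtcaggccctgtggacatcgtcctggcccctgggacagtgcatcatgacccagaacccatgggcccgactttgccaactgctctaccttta
Atp5g3 (chr2:73971477-73971627): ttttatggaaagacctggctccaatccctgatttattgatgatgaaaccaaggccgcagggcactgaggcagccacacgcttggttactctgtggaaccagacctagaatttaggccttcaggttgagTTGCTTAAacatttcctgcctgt
Ckap4 (chr10:84494652-84494802): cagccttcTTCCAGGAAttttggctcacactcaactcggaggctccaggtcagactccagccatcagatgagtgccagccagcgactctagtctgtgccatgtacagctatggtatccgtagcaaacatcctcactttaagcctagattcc
The last pair lie around Ucp1. At -11807 bp from its start the ratio of fasting to fed tags lay below that of the median region, and capitals mark the FOXO letters. The region 19738 bp downstream had a ratio above that of the median region and matched none of the patterns.
Ucp1 (chr8:83278470-83278620): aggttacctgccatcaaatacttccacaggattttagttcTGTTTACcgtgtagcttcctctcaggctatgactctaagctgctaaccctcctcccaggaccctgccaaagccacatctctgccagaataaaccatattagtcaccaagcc
Ucp1 (chr8:83310015-83310165): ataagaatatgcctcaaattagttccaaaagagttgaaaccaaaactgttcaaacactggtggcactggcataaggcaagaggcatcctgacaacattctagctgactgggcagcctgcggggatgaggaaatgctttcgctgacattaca

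The libraries differed in depth and in contrast. Whole tag counts at the summits could be recovered from the deposited fold and p-values (98.3% of fed and 99.96% of fasting values were whole within 0.001). The background was 12.8 tags in the fed library and 6.76 in the fasting library, a ratio of 1.89. The fewest tags with which a region was listed at that background were 36 in fed (fold 2.69) and 15 in fasting (fold 2.06). Each list ended at a fixed limit on the number of peaks, and every fed region had a q-value under 0.01, whereas 69.4% of the 189706 fasting regions did. At the edge of the fasting set the last region inside had 34 tags at a fold of 1.93 and the first region outside had 39 tags at a fold of 1.85. In regions listed in both states the median fasting library held 0.294 tags for each fed tag, less than the backgrounds alone would give (a median log2 ratio of -0.85 at equal background). Relative to these backgrounds, the signal of the median shared region was thus lower in the fasting library. The deposited fold is set against a local background and was not lower in fasting at every region. All tag ratios below are log2 values minus the median of the 102765 merged regions listed in both states. A rank is the percentile of a region's p within its own list, with 0 for a gene or region where no peak was listed.

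The tissue label was checked against its markers. The Ucp1 promoter (summit within 3000 bp of a start) ranked at 92.4 in fed brown adipose and at 89.5 in fasting. It was listed at 0 in both states of heart, kidney, liver, lung and muscle, at 65.3 and 30.2 in spleen and at 9.98 and 0 in white adipose. The rank of Cidea, a lipid droplet protein of brown fat, was 95.01 in fed and 95.7 in fasting and at most 83.1 in the other 14 libraries. All 5 brown adipocyte markers and all 5 general adipocyte markers were listed in both states. High ranks of Cox8b, Adrb3 and Kcnk3 were not particular to brown adipose. In fed brown adipose they ranked at 88.2, 88.5 and 92.95, and in fasting at 90.4, 91.7 and 96.4. Cox8b ranked at 89.9 in fed muscle, Adrb3 at 90.9 in fed liver and Kcnk3 at 93.8 in fed heart.

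Regions listed in 1 state were weak. Fasting-only regions made up 19.2% of the fasting set and fed-only regions 30.3% of the fed set. The median fasting-only region held 20 tags at a fold of 2.58 with a rank of 40.2, and 73.1% of these regions ranked between 25 and 50. The median fed-only region held 57 tags at a fold of 2.77 with a rank of 21.3, and 57.4% ranked below 25. Only 116 fasting-only and 64 fed-only regions ranked above 75. By comparison, regions of the fasting set that were also listed in fed had a median fold of 3.74, and those of the fed set also listed in fasting 5.47. A fasting-only region at the same enrichment would have been listed in the deeper fed library in 17709 cases (70.0%), so for the remainder the depth could not show a difference.

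The count beyond counting error depended on the scale. When the lower 95% limit of a region's tags was carried to the other library at equal background, 674 fasting-only and 34270 fed-only regions would still have been listed there. When it was carried at equal signal, that is with the tags above background scaled by 0.276 (fasting for each fed tag, the median ratio), the numbers were 7336 (29.0% of fasting-only regions) and 9968 (22.0% of fed-only regions). At equal signal, these regions were 4.23% and 5.75% of the 173434 merged regions. Fed-only regions outnumbered fasting-only regions in the sets and on both of these scales. Over all deposited peaks, where the fasting list reached down to weaker regions, the order turned, with 66756 fasting-only and 45362 fed-only regions.

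**Figure D1:**
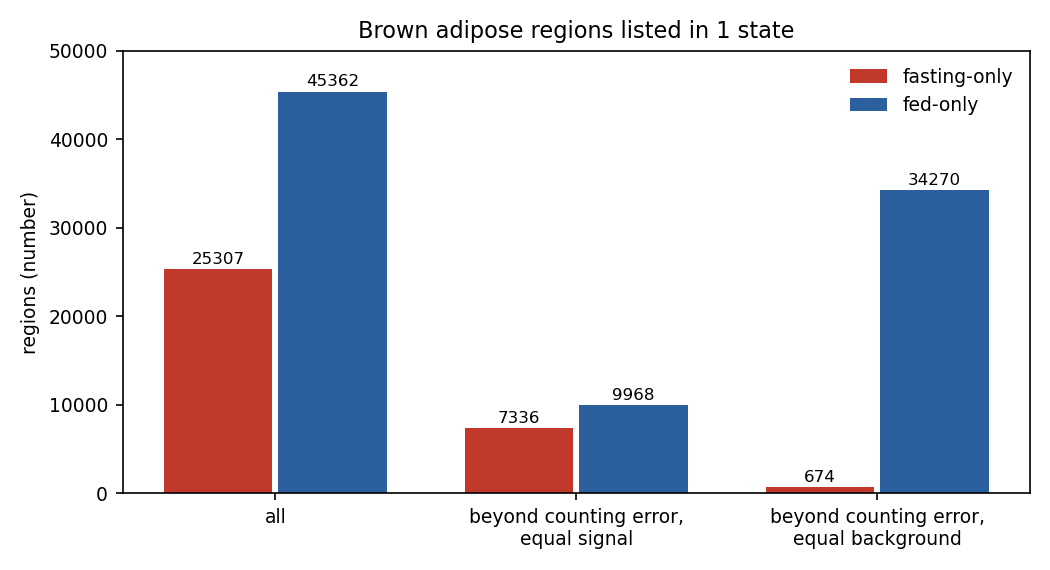
Number of brown adipose regions listed in fasting only (red) or in fed only (blue), for all such regions and for those whose tags exceeded what counting error allowed at equal signal or at equal background. All 3 pairs had more fed-only regions, from 9968 against 7336 at equal signal to 34270 against 674 at equal background. Over all deposited peaks, which are not drawn, there were 66756 fasting-only and 45362 fed-only regions.

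Condition-only regions lay away from starts more often than shared ones. A summit within 3000 bp of an annotated start was found in 24.3% of fasting-only regions (95% exact binomial interval 23.7 to 24.8) and in 31.7% of fed-only regions (31.3 to 32.2). For shared regions the share was 40.5% in the fasting set and 37.5% in the fed set. Introns held 55.8% of fasting-only and 58.4% of fed-only summits, and intergenic DNA 33.2% and 30.2%. The X chromosome held 137 of the 25307 fasting-only and 1292 of the 45362 fed-only regions. Of shared regions it held 1956 of 106381 in the fasting set and 1874 of 104473 in the fed set.

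The strongest regions of each kind lay mostly over 3000 bp from a start. The exceptions among the first 10 were those of Psma6 (-963 bp), Igfbp4 (-381 bp) and Cdh12 in fasting and of Depp1 in fed. The Cdh12 region lay 602 bp from a start of Gm25101. The fasting-only region of smallest p lay in an intron of Arhgap26 with 144 tags at a fold of 4.32. The next were in introns of or beside Psma6 (fold 4.73), Agap1 (fold 4.50) and Trim63. The Trim63 region, at -4834 bp from the start, held 107 tags at a fold of 5.12, where 202 tags would have matched it in the fed library. It was also listed in fasting liver (rank 86.2) and not in fed liver, in both muscle libraries (92.1 in fasting and 83.7 in fed) and in both kidney libraries (82.8 and 77.3). Igfbp4, an IGF-binding protein, followed with 143 tags, and Gadd45g, a stress-response gene, with 151. Cdh12 (61 tags, fold 7.99, the highest fold of a fasting-only region), Fermt2 (104 tags) and Atp9b (58 tags) were also among the first 10. The Cdh12 region was listed in all 14 other libraries. Repeated sequence made up 66.7% of the bases within 100 bp of its summit, and 67.2% at the Psma6 region. The Fermt2 region was listed in none of the other 14 libraries.

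Fed-only regions reached larger folds. The first, at -60226 bp from Atp5g3, a subunit of the mitochondrial ATP synthase, held 235 tags at a fold of 15.97, and 124 tags would have matched it in the fasting library. It was also listed in both states of liver (96.3 in fed and 82.7 in fasting) and of white adipose (80.9 and 60.6). The second lay in an intron 39309 bp from the start of Ckap4 (240 tags, fold 11.3). Regions nearest to Ntsr1, the neurotensin receptor (204 tags), Upk2 (183 tags), Cfap54 (321 tags), Spata6 (175 tags), Cops8 (174 tags), Dhrs2 (173 tags), Depp1 (325 tags) and Kcne2 (171 tags) followed. The Depp1 region lay in its coding exon, 1286 bp from the start, and was the only one of the 10 listed in all 14 other libraries. Those of Upk2, Cfap54 and Cops8 were listed in none of them. A fold over 5 was found in 2121 of the 9968 fed-only regions beyond counting error at equal signal and in 31 of the 7336 fasting-only regions. The median fold was also larger over the whole fed set, at 3.99 against 3.22 over the fasting set, though not at every region.

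Some genes had many condition-only regions, in part because they had many regions of any kind. Of all merged regions 14.6% were fasting-only and 26.2% fed-only. Slc4a4, a sodium bicarbonate cotransporter, was the nearest protein-coding gene of 188 merged regions, of which 53 were fasting-only and 52 fed-only. Of the other genes with the most fasting-only regions, Pde4d, a cAMP phosphodiesterase, had 38 fasting-only and 34 fed-only among 178 regions, and Celf2 had 34 and 39 among 151. Prl2c3 (44 and 3 of 52) and Tcp10c (35 and 3 of 61) belong to gene families with near-identical copies, so that reads there are uncertain. The same holds for Sfi1, with 28 of 75 regions fasting-only beyond counting error at equal signal. The most fed-only regions lay nearest to Qk, an RNA-binding protein (62 fed-only and 17 fasting-only of 145), Ebf1, an adipocyte transcription factor (60 and 29 of 189), Ntrk3 (60 and 11 of 133), Nfib (58 and 20 of 151) and Slc4a4. The fed-only counts of Slc4a4, Celf2 and Ebf1 were thus near the share of all regions.

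The tag ratio lay above the median in about as many regions of the glucocorticoid genes as not. Of all 102765 regions listed in both states, 12681 (12.3%) had a tag ratio whose 95% interval lay above the median and 14835 (14.4%) one below it. Of the 243 regions nearest to the 16 genes of the glucocorticoid response list, 122 (50.2%) lay above and 21 (8.64%) below. Without centring, at equal background, 19.3% of these 243 regions lay above and 50.2% below, against 0.789% and 73.7% of all regions, so that the direction of the list held only relative to the median region. All 25 regions of Fkbp5, the receptor's co-chaperone, lay above, with a median log2 ratio of 1.44. For Zbtb16, a zinc finger transcription factor, 34 of 36 lay above (median 1.15) and for Ddit4, an inhibitor of mTORC1, 10 of 10 (median 1.10). Klf9 had 14 of 29 above, Tsc22d3, which encodes the glucocorticoid-induced protein GILZ, 11 of 29, the metallothionein gene Mt1 6 of 8 and the clock gene Per1 4 of 6. The share was low for other members. Dusp1, a MAP kinase phosphatase, had 1 of 22 above and 7 below, and Nr3c1, the receptor gene itself, 2 of 32 above and 7 below.

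Single regions gave the size of these differences. A region at -1713 bp from the nearest Fkbp5 start (chr17:28420144-28420923) held 134 tags in fed and 224 in fasting although the fasting library had fewer tags elsewhere, a centred log2 ratio of 2.51 (2.19 to 2.83). Its rank was 59.0 in fed and 95.1 in fasting. The Fkbp5 region of the second sequence, 1113 bp from a start, held 97 and 90 tags (1.66, 1.23 to 2.09). Over an Fkbp5 start (chr17:28485296-28486564) the tags were 796 in fed and 307 in fasting, a ratio of 0.39 (0.20 to 0.58), the lowest of the 25. In Zbtb16 the region of the first sequence held 56 and 91 tags (2.47, 1.97 to 2.97). In Tsc22d3 a region 29180 bp from a start held 53 and 73 tags (2.23, 1.70 to 2.77) and that of the third sequence 184 and 153 tags (1.5, 1.18 to 1.82). A region at -15865 bp from Ddit4 held 74 and 85 tags (1.97, 1.5 to 2.44), and one 13653 bp from Mt1 held 83 and 100 (2.04, 1.60 to 2.47).

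The glucocorticoid genes also had more than the background of fasting-only regions. Of the 405 merged regions nearest to them, 85 (21.0%) were fasting-only, against 14.6% of all merged regions, and 77 (19.0%) were fed-only, against 26.2%. At equal signal 49 (12.1%) were fasting-only beyond counting error, against 4.23% of all. Zbtb16 had 16 fasting-only and 15 fed-only of 67 regions, Klf9 14 and 9 of 52, Fkbp5 13 and 0 of 38 and Ddit4 8 and 1 of 19. Nr3c1 had 4 and 20 of 56, and Mt1 0 and 0 of 8.

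The tag ratio lay below the median in more regions of the thermogenic genes than above it, while most lay within counting error of it. Of 407 regions nearest to the 16 genes of that list, 148 (36.4%) lay below the median tag ratio and 28 (6.88%) above it. At equal background 86.7% lay below and 0.491% above, beside 73.7% and 0.789% of all regions. Ranks were read in another set of regions, those within 50000 bp of the starts of these genes. Of these, 303 were listed in both states, 211 ranking higher in fasting and 92 lower. That share was close to the 66.5% of all regions listed in both states that ranked higher. All 12 regions of Ucp1 listed in both states lay below, with a median of -1.07. Prdm16, which directs brown fat identity, had 43 of 71 below (median -0.54), Ppargc1b, a coactivator of mitochondrial genes, 20 of 29 (-0.47), Adrb3, the adipocyte beta-adrenergic receptor, 7 of 9 (-0.68), and Cox8b, a cytochrome oxidase subunit, 7 of 8 (-0.41). Dio2, which makes active thyroid hormone, had 9 of 20 below and Ppargc1a 14 of 64. Not every member was lower: Cidea had 0 of 16 regions below and 2 above, and Elovl3, a fatty acid elongase, 0 of 5 below and 1 above.

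At Ucp1 the lowest ratios lay at its start and inside the gene. The region at its start (chr8:83289938-83290848) held 889 tags in fed and 78 in fasting, a centred log2 ratio of -1.74 (-2.10 to -1.41), which placed it among the 10 most lowered regions of the whole tissue by the upper limit of the interval. The regions 1736, 5095 and 7137 bp inside the gene had ratios of -1.43, -1.63 and -1.61. Upstream, the values were -0.68 (-0.97 to -0.39) at -2385 bp, from 658 and 121 tags, -0.55 at -5706 bp and -0.68 at -11807 bp, the region with the FOXO letters shown above (557 and 102 tags). The fold over the local background at the start was 4.94 in fed and 4.17 in fasting, so the gap in fold was smaller than that in tags. Its rank was 92.4 in fed and 82.3 in fasting, and the promoter rank of 89.5 in fasting came from the region at -2385 bp. Of the 32 merged regions within 50000 bp of the start, 18 were listed in both states, 11 in fed only and 3 in fasting only. By rank 11 of the 18 were higher in fasting and 7 lower. By tag ratio 14 of the 18 lay below the median region and 1 above it. The latter was the region 19738 bp downstream shown above, with 180 tags in fed and 113 in fasting (1.10, 0.74 to 1.44). The region 42315 bp downstream, with 732 and 237 tags, had a ratio of 0.14 (-0.08 to 0.35).

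**Figure D2:**
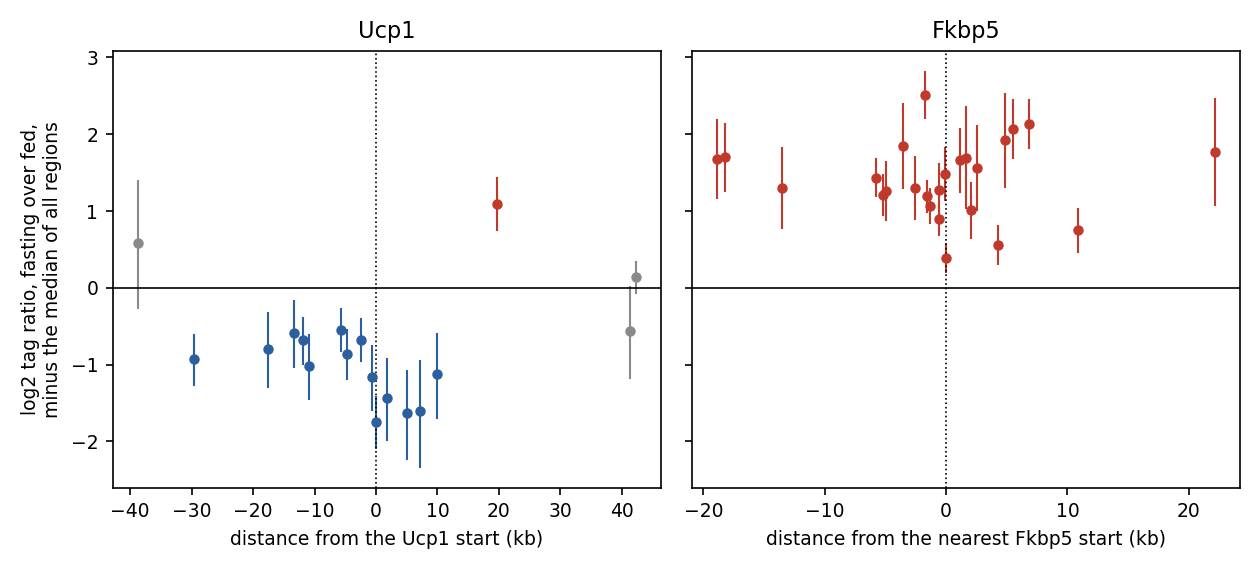
Tag ratio of regions listed in both states near Ucp1 (left, within 50000 bp of its start) and nearest to Fkbp5 (right), as log2 of fasting over fed tags minus the median of all regions, against distance from the start in kb. Bars are 95% counting intervals, red lies above and blue below the median: 14 of 18 regions near Ucp1 lay below and 1 above, and 25 of 25 of Fkbp5 lay above.

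Other thermogenic loci had regions of the same kind. In Prdm16 a region 38710 bp downstream of a start held 344 tags in fed and 36 in fasting (-1.49, -2.03 to -0.99), and one 33076 bp downstream held 575 and 67 (-1.34, -1.72 to -0.97). A region 91105 bp from the Dio2 start held 280 and 31 tags (-1.41, -1.99 to -0.87). At the Adrb3 start the tags were 742 and 109 (-1.001, -1.30 to -0.71). Cidea gave the contrast: its start held 891 and 231 tags, a ratio of -0.18 (-0.40 to 0.03). The thermogenic genes had 235 fed-only regions among 700 (33.6%), against 26.2% of all merged regions, and 58 fasting-only (8.29%), against 14.6%. At equal signal these shares were 6.43% and 2.57%, against 5.75% and 4.23% of all merged regions, so that the fed-only share was close to the background.

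The lists of lipid handling lay between these extremes. Of the 265 regions of the lipolysis and lipid droplet list, 71 (26.8%) were below and 35 (13.2%) above the median. Prkar2b, a regulatory subunit of protein kinase A, had 21 of 43 below, Adrb1 14 of 27, the monoglyceride lipase gene Mgll 12 of 37, and the lipid droplet coats Plin1 and Plin2 8 of 15 and 9 of 19. Pde3b, the phosphodiesterase through which insulin lowers cAMP, went the other way with 17 of 39 above and 1 below. Fatty acid and triglyceride synthesis had 77 of 342 below (22.5%) and 43 above (12.6%), with Srebf1, the lipogenic transcription factor, at 10 of 13 below, Fasn at 4 of 10 below, and the phosphatidate phosphatase gene Lpin1 at 18 of 45 above. Fatty acid oxidation had 32 of 176 below (18.2%) and 27 above (15.3%), with Pdk4, which turns off glucose oxidation, at 11 of 27 above and 0 below. Lipid uptake had 32 of 185 above (17.3%) and 18 below (9.73%). The fatty acid transporter Cd36 had the most, with 12 of 57 above, and Gpihbp1, which holds lipoprotein lipase on capillaries, the highest share, with 3 of 5. Vldlr, a lipoprotein receptor, had 4 of 19 above and 5 below.

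Regulators of the fasting state were mixed. In the insulin and FOXO list 58 of 383 regions (15.1%) were above and 59 (15.4%) below, close to the shares of all regions. Within it Foxo3 had 11 of 20 above and 3 below, Igf1r 9 of 31 above and 0 below, and Pik3r1, the regulatory subunit of PI3-kinase, 28 of 81 below and 4 above. The circadian list had 46 of 200 above (23.0%) and 19 below (9.50%), led by Tef with 10 of 15 and Nfil3 with 10 of 31 above. Adipocyte transcription factors had 153 of 586 below (26.1%) and 60 above (10.2%). Pparg, the master regulator of adipocytes, had 21 of 54 below and 0 above, and Ppara 23 of 51 below and 0 above. The ATF4 and stress list had 14 of 84 below (16.7%) and 6 above (7.14%), and the adipocyte hormones 21 of 105 below (20%) and 14 above (13.3%). Some genes stood in more than 1 list.

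**Figure D3:**
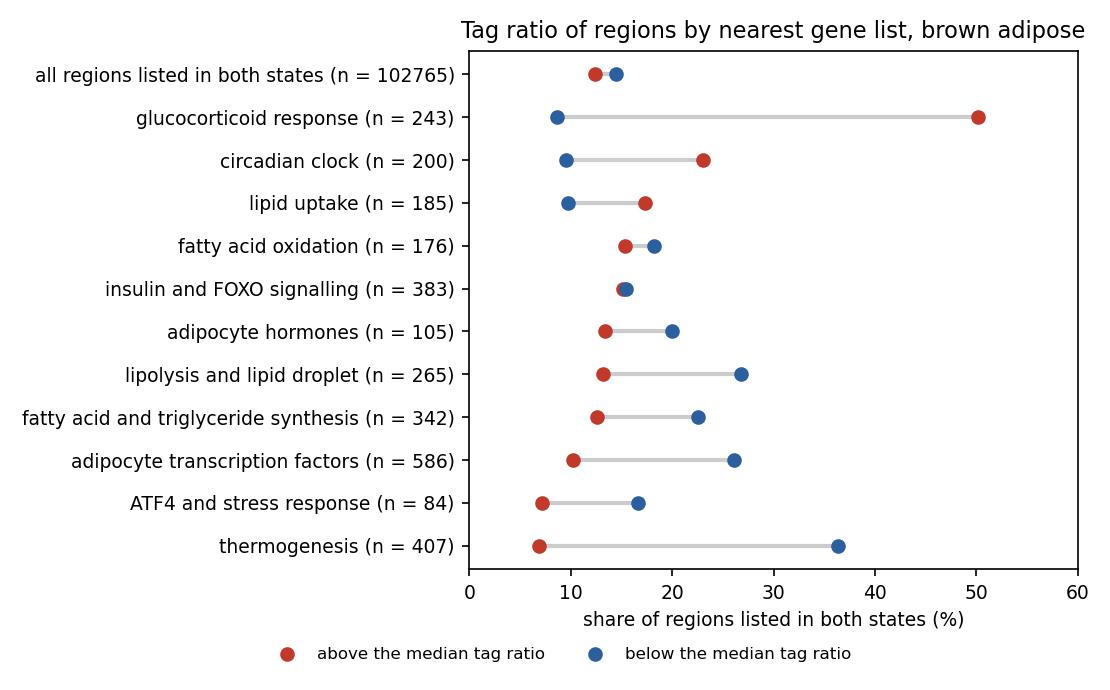
Share of regions listed in both brown adipose states, by the gene list of the nearest protein-coding gene, whose tag ratio had a 95% interval above (red) or below (blue) the median of all regions. The glucocorticoid list had 50.2% above and 8.64% below, the thermogenesis list 6.88% above and 36.4% below, and all regions 12.3% and 14.4%.

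Regions above and below the median differed in other measured properties too. Their median fed rank was 58.2 above, 61.2 between and 80 below, and the share at promoters 33.4%, 36.8% and 43.5%. The median GC content of distal regions was 49.3%, 49.8% and 51.7%. Across 5 equal groups by the mean rank of both states the median log2 ratio was 0.21 in the weakest group and between -0.13 and 0.05 in the others. The part of these properties in the list shares was not tested, but with the median taken within each such group the glucocorticoid share above was 48.2% and the thermogenesis share below 36.1%.

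Among shared regions the GRE letters were most frequent where the tag ratio lay above the median. Among distal regions listed in both states, the GRE letters lay in 2.58% of the 8448 regions above the median (95% exact interval 2.25 to 2.94), in 0.507% of the 47566 between (0.445 to 0.575) and in 0.298% of the 8386 below (0.193 to 0.440). Among fasting-only distal regions they lay in 1.13%, and in 27 of the 482 (5.60%, 3.72 to 8.05) that exceeded counting error at equal background. The fed-only share was 0.359%, and 0.208% (0.114 to 0.349) beyond counting error at equal signal, where the fasting-only share was 1.99% (1.64 to 2.40). In the glucocorticoid list, 12 of the 122 regions above held the letters (9.84%, 5.19 to 16.6), among them the 3 sequences of Zbtb16, Fkbp5 and Tsc22d3 shown above. The count was 0 of the 100 regions between, which allows a share of up to 3.62%, and 0 of the 21 below, which allows up to 16.1%.

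FOXO letters followed the same order. They lay in 6.10% of shared distal regions above (5.60 to 6.63), in 2.73% between and in 1.36% below (1.12 to 1.63). Fasting-only regions beyond counting error at equal background held them in 8.51% (6.17 to 11.4), and fed-only regions at equal signal in 1.89%. AP1 letters lay in 12.1% above, 8.18% between and 4.996% below. STAT letters ran the other way, with 6.01% above, 6.59% between and 8.63% below, and 9.36% of fed-only regions at equal signal. Letters of CTCF, a factor of insulators, were at 6.53% between and lower on both sides, 2.75% above and 3.54% below. For the letters of PPRE (AGGNCANAGGNCA, read by PPAR), ERR (TCAAGGTCA), EBF (TCCCNNGGGA) and MEF2 the intervals above and below overlapped, with PPRE at 0.923% above and 0.966% below.

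**Figure D4:**
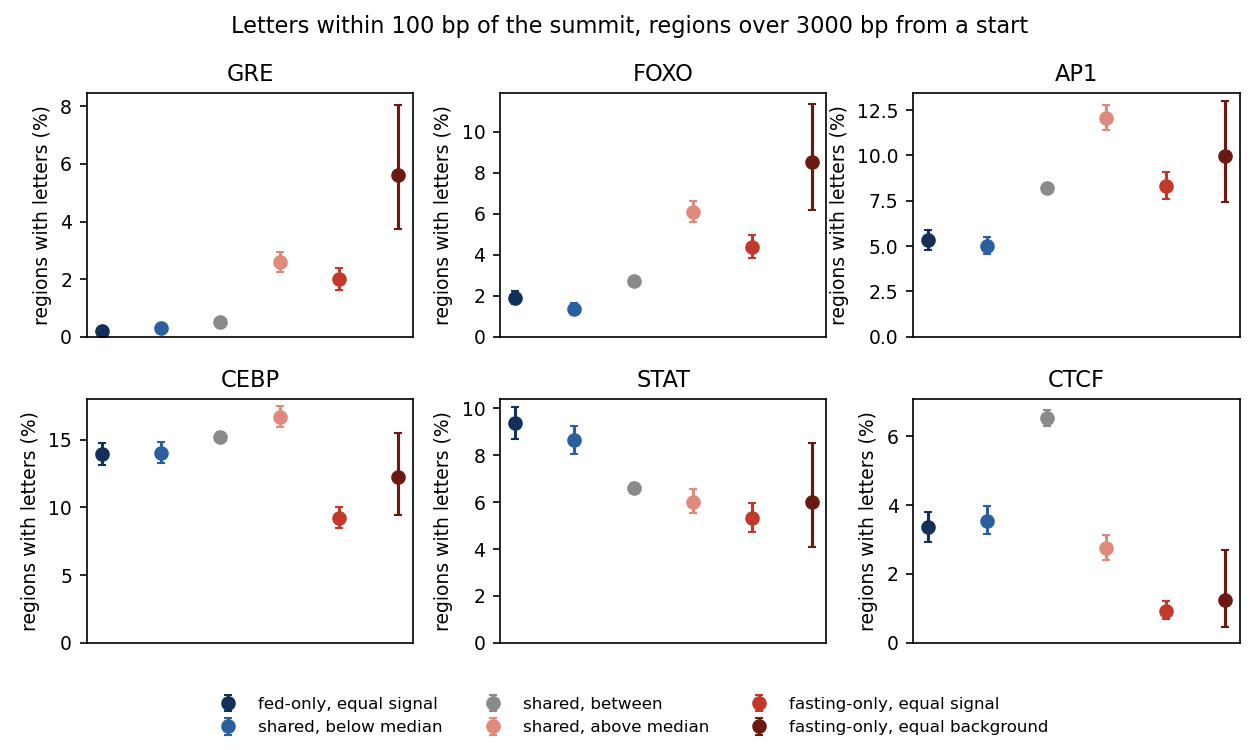
Share of distal brown adipose regions with the letters of 6 factors within 100 bp of the summit, from fed-only regions (left) through shared regions with lower, middle and higher tag ratios to fasting-only regions (right). Bars are 95% exact binomial intervals: GRE, FOXO and AP1 shares were higher among shared regions above the median than among those below, the STAT share was lower, and the CTCF share was highest in the middle.

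Promoter ranks left little room for a rise, since the median fed rank of the 11 pathway lists lay between 90.02 and 96.4. Of 21924 protein-coding genes, 15079 (68.8%) had a promoter listed in both states, 509 in fed alone, 318 in fasting alone and 6018 in neither. In fasting 1146 promoters (5.23%) ranked at least 10 points higher and 938 (4.28%) at least 10 points lower, and the median shift of those listed in both was 0.48 points. All 159 genes of the 11 pathway lists were listed in both states. Gpihbp1, from 48.7 in fed to 74.7 in fasting, was the only one of them to shift by 10 points or more. A small shift in rank does not show like signal, since the region at the Ucp1 start went from 889 to 78 tags. Of promoters listed in both with tags at the same region, 16% had a tag ratio above the promoter median by its interval and 14.3% one below. Of the 16 thermogenic promoters 3 lay above and 8 below, of the 16 glucocorticoid promoters 8 above and 2 below, of the 18 circadian promoters 7 and 2, and of the 16 fatty acid oxidation promoters 6 and 0.

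Ranks of single list genes differed by a few points. Among thermogenic genes Elovl3 (81.5 in fed and 89.6 in fasting) and Zfp516 (91.7 and 95.7) were highest in shift, and Dio2 (91.9 and 87.5) and Ucp1 lowest. The glucocorticoid genes Lcn2 (86.9 and 94.6) and Klf9 (87.6 and 94.8) ranked higher and Mt2 (93.8 and 91.0) lower. In the lipolysis list Lipe, hormone-sensitive lipase, went from 91.6 to 97.0 and Mgll from 93.0 to 89.3. Txnip, an inhibitor of glucose uptake, went from 87.0 to 94.7, Thrsp from 86.6 to 93.6, and Angptl4, an inhibitor of lipoprotein lipase, from 85.3 to 92.4. Lower ranks were found for the hormones Fgf21 (65.3 and 58.6) and Lep (95.1 and 91.6). Slc7a11, a cystine transporter, stood at 71.8 and 81.6. Fabp4, a fatty acid carrier, had ranks of 93.1 and 96.0, and Nrf1 of 99.5 and 98.9. The median shift was above 0 for all 11 lists, but ranked within the sets it was -0.71 for thermogenesis, -0.25 for the glucocorticoid list, -0.47 for the ATF4 list and -1.84 for the hormones.

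The promoters with the largest rank shifts were near the limit of listing in 1 state. Among those listed in both, Mettl21e, a muscle methyltransferase gene, went from 3.20 in fed to 67.9 in fasting on 36 and 29 tags, Vmn2r102 from 3.20 to 65.0 and Zfp988 from 12.3 to 72.7. Gm10721 and Gm10720 shared 1 region (44 and 57 tags) and lie among repeated copies, and Slc18a3 and Chat, the vesicular transporter and the synthase of acetylcholine, shared another (36 and 25 tags). Slc7a15, Shisal1 and Lmod2 completed the 10. The largest shifts down ended at the 15 tags with which a fasting region could be listed: Pdzrn4 (130 tags in fed), Cxcl16 and Zmynd15 (113, shared), Klhl34 (148, then 16 in fasting), Ribc2 and Smc1b (102, shared), Lrfn3 and Mgat3 (98 each), Myocos (90) and Alas2 (89). Relative to the promoter median the log2 tag ratio was 1.48 (0.72 to 2.22) for Mettl21e, -1.33 (-2.21 to -0.55) for Pdzrn4 and -1.42 (-2.26 to -0.67) for Klhl34, and the intervals of Myocos and Alas2 included 0.

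Markers of other cell types differed as well. All 5 endothelial promoters ranked higher in fasting, among them Pecam1 (39.0 in fed and 60.3 in fasting) and Cdh5 (60.6 and 80.02), with a median shift of 11.1 points. Ranked within the sets this shift was 1.83 points, and Cdh5 was the only one of the 5 whose tag ratio had an interval above the promoter median (0.75, 0.24 to 1.24). Of 6 skeletal muscle promoters 4 ranked lower, Myh4 from 55.0 to 0, Tnnt3 from 37.96 to 5.20 and Acta1 from 75.7 to 56.8, while Mylpf (98.6 and 99.7) and Actn3 (94.0 and 94.5) did not. The fibroblast genes Dcn (77.0 and 0) and Lum (28.3 and 0), the mural genes Pdgfrb (51.8 and 10.8) and Rgs5 (32.5 and 0) and the Schwann cell gene Sox10 (50.8 and 0) were lower, with Col1a1 (86.8 and 90.8) the only one of these 10 genes higher. At the median of 0.294 fasting tags for each fed tag, Lum (47 fed tags) and Rgs5 (50) would fall near the 15 tags needed for listing. Their rank of 0 thus cannot show a difference. Tag ratio intervals included 0 for Pdgfrb (-1.30 to 0.17) and Tnnt3 (-1.24 to 0.50). By interval 1 skeletal muscle, 1 mural, 1 Schwann cell and 0 fibroblast promoters lay below the promoter median, and 1 skeletal muscle promoter above. Of 5 macrophage genes 4 were listed at 0 in both states, as were 2 of 4 T cell and 2 of 4 B cell genes. The mean rank of each whole list was 49.9 in fed and 63.0 in fasting for endothelium, 73.0 and 55.2 for skeletal muscle, 71.8 and 46.2 for fibroblasts, 54.8 and 29.0 for mural cells, 78.5 and 60.3 for Schwann cells and 14.1 and 17.4 for macrophages. The brown adipocyte list stood at 91.4 and 92.8 and the adipocyte list at 91.0 and 95.1. The part of such cells in the results above was not tested.

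Condition-only regions of brown adipose were then read in the other 7 tissues, whose libraries had no part in choosing them. In each tissue the share of fasting-only regions covered by the fasting set minus that covered by the fed set was compared with the same difference for fed-only regions. The gap was positive in 6 of 7 tissues, with a mean of 2.10 percentage points (SD 2.30, n = 7, exact two-sided sign-flip permutation p = 0.0312, where 0.0156 is the smallest this design allows). The study names 3 mice of each state for all its tissues, those of the brown adipose pools included, so the 7 tissues are not separate animals and the p measures only the spread between tissues. It was largest in white adipose (6.76 points) and was -0.62 in liver. Leaving out liver gave a mean of 2.56 points (exact permutation p = 0.0312, the smallest then possible). Leaving out heart, kidney, lung, muscle or spleen gave means of 1.99 to 2.30, and leaving out white adipose 1.33, each with an exact permutation p of 0.0625. In white adipose 33.9% of the fed-only regions were covered in fed and 28.0% in fasting. The fasting set covered more of the fasting-only regions than the fed set did in 6 of 7 tissues. It covered fewer of the fed-only regions in only 2, white adipose and lung (26.8% in fasting and 28.7% in fed). In heart, kidney, liver, muscle and spleen it covered more of the fed-only regions, by up to 3.0 points in muscle.

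The list shares in brown adipose stood beside those of the other tissues, each from 1 library per state, with no test. The glucocorticoid list had more regions above than below the median of its tissue in all 8, at 50.2% above in brown adipose, 47.0% in muscle, 37.0% in lung, 35.1% in liver, 34.2% in white adipose, 30.8% in kidney, 19.6% in heart and 7.77% in spleen. The share of all regions above was 12.3%, 14.5%, 9.35%, 15.8%, 11.8%, 7.46%, 2.47% and 2.34% in the same order of tissues. For thermogenesis the share below was 36.4% in brown adipose, 14.6% in muscle and between 3.89% and 8.29% in the other 6 tissues. Of all regions 14.4% lay below in brown adipose and 11.6% in muscle, so that the thermogenesis share in muscle was near its background. GRE letters were more frequent above than below in 7 tissues. In white adipose the order was reversed, with 1.25% above (1.03 to 1.51) and 3.90% below (3.39 to 4.46). FOXO letters were more frequent above than below in all 8 tissues, with 5.28% and 1.59% in white adipose. In liver the FOXO shares were 5.98% and 5.12%, and their intervals overlapped.

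**Figure D5:**
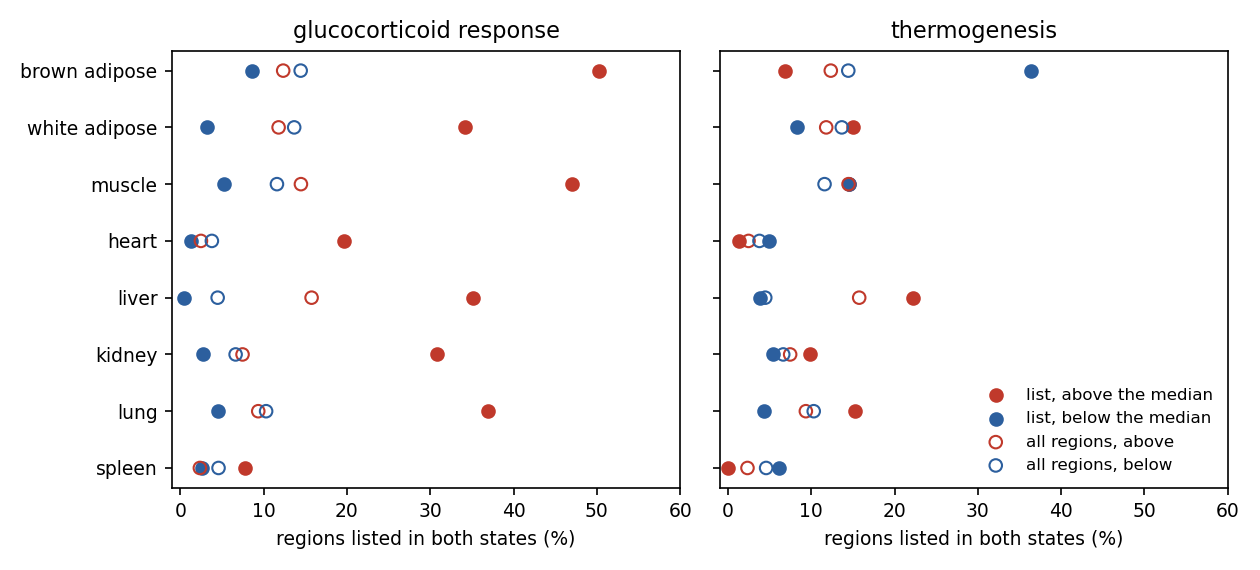
Share of regions listed in both states of each of 8 tissues whose tag ratio lay above (red) or below (blue) the median of that tissue, for regions nearest to the glucocorticoid genes (left) and the thermogenic genes (right), with all regions as open circles. The red points of the glucocorticoid list lay right of the blue in all 8 tissues, and the blue point of thermogenesis was at 36.4% in brown adipose and at most 14.6% elsewhere.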

How the data were processed

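ATAC-seq peak lists of brown adipose from fed and fasting mice, 1 pooled library each, were compared, and the 14 lists of the other 7 tissues were read for the last comparisons. Per the study's methods, the authors trimmed the reads, aligned them with Bowtie2 (the labels name GRCm38), removed unmapped reads and duplicates and called peaks with MACS2. Versions of both are not given in the sources used here. The deposited lists held, for each peak, a fold enrichment over the local background and the -log10 of its p-value and q-value, with several summits per interval. Per the file names, the lists were limited in their number of peaks.

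Tag counts were recovered from the deposited fold and -log10 p values. Promoters were summits within 3000 bp of any of 132666 starts of GENCODE vM21, and sequences were read from the RefSeq assembly of GRCm38. Tag ratios had 95% exact counting intervals, shares 95% exact binomial (Clopper-Pearson) intervals. Computation used Python 3.11.15, numpy 2.4.6, scipy 1.17.1 and pandas 2.3.3. Tag recovery, tag ratio intervals, overlap calls, the letter search and the permutation step were tested on simulated data.

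With 1 library per state no difference between the states was tested. The single test was an exact sign-flip permutation over 7 tissues. Ranks were percentiles of p within a list. Names follow fixed rules: Ucp1, Cidea, Fabp4 and Nrf1, the largest promoter shifts up and down in each list, the 10 strongest regions of each kind, the 10 largest promoter shifts each way and the 5 genes with the most regions. Genes named for the shares of their regions, Sfi1, and the single regions within loci were chosen after their values were seen. Some regions and genes that these rules name are not reported here. The members and gene lists were chosen with earlier results of these data known. Alternatives covered q, overlap, window, ranking, depth, counting error and centring, the last 2 added after seeing the data.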

Additional observations from a re-analysis of the deposited data

Results flagged for a closer look

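The median promoter rank shift of 6 gene lists had opposite signs in brown and white adipose, each difference resting on 1 library per state and not tested. The shift, fasting minus fed in rank points, was 2.40 in brown and -0.36 in white adipose for the circadian clock, 3.68 and -0.17 for fatty acid and triglyceride synthesis, and 1.38 and -0.59 for B cell markers. It was -14.5 in brown and 12.2 in white adipose for fibroblast markers, -10.5 and 1.31 for skeletal muscle markers and -3.24 and 3.03 for Schwann cell markers. With a window of 1000 bp in place of 3000 bp the brown adipose values of these 3 lists were -0.38, -0.997 and 0.

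The GRE letters also differed in sign between both tissues. Their share of regions above minus that below the median tag ratio was 2.28 percentage points in brown and -2.65 in white adipose, which was not tested either.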

How the results depend on the processing

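The number of condition-only regions differed between settings. With the fed library scaled to the fasting depth it stayed at 25307 fasting-only and 45362 fed-only, since all 149835 fed regions remained listed. Fasting-only regions numbered 8093 at q under 0.001 and 66756 over all deposited peaks, and, by alternatives added after seeing the data, 7336 beyond counting error at equal signal and 674 at equal background. Fed-only regions numbered 70183 when an overlap of 50% was asked for and 9968 beyond counting error at equal signal. The log2 ratio of the counts, -0.84 as reported, was -2.49 at q under 0.001, -1.39 with the overlap of 50%, -1.16 against the other state's set, -0.81 on autosomes, -1.72 with the same list floor, -5.67 at equal background and -0.44 at equal signal. It was reversed to 0.56 over all deposited peaks, where the fasting list reached down to a lower p than the fed list.

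The promoter share of fasting-only regions was 27.0% at q under 0.001, 11.5% within 1000 bp, 16.9% with protein-coding starts, 28.5% at equal background and 26.8% at equal signal, and that of fed-only regions 18.3%, 25.1%, 32.9% and 32.6% under the last 4 of these. Promoters at least 10 points higher numbered 3293 by fold and 443 within the sets, and those lower 2311 within the sets. The median shift over the lists was 15.1 by fold and 0.35 within the sets. By fold it was 19.1 for thermogenesis and 5.60 for the glucocorticoid list. Ranked within the sets, the median was reversed to -0.71 for thermogenesis, -0.25 for the glucocorticoid list, -0.47 for the ATF4 list, -1.84 for hormones, -1.16 for brown adipocyte markers and -0.84 for B cell markers, the last also by fold (-0.58). With a window of 1000 bp the median shift was -0.38 for fibroblast, -0.997 for skeletal muscle and 0 for Schwann cell markers. The cause was not tested.

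The GRE share of fasting-only minus fed-only regions, 0.77 points, was 0.43 within 50 bp, 5.28 at equal background and 1.78 at equal signal, and the TEAD difference was reversed (0.96 at equal background). Smaller differences also changed sign, among them CRE (0.034 to -0.17) and MEF2 (-0.034 to 0.50) at equal background and PPRE (0.024 to -0.052) and ERR (-0.17 to 0.012) at equal signal. Without centring on the median, at equal background, 19.3% of glucocorticoid regions lay above and 50.2% below, 86.7% of thermogenesis regions lay below, against 0.789% above and 73.7% below of all regions, and the GRE gap was 7.12 points. Leaving out 1 tissue gave coverage gaps of 1.33 to 2.56 points. No paired analysis was possible because each state had 1 library.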
